A study of Mus musculus with 4 samples.

Results

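Osteoblasts are the cells that lay down bone matrix and bring about its mineralisation. The transcription factors Runx2 and Sp7 (osterix) set the lineage, the phosphatase Alpl prepares the matrix for mineral, and Ibsp, Spp1, Dmp1 and Mepe encode acidic matrix proteins that bind mineral. Phex, an endopeptidase of osteoblasts and osteocytes, restrains phosphate loss through the kidney, and its loss causes hypophosphatemia in humans and mice. Bone is not a component of dermis, although Alpl is also a known marker of the dermal papilla, the mesenchyme of the hair follicle.

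The genes described here are these 8 osteoblast genes, represented by 10 of the 45037 probe sets of 4 Affymetrix Mouse Genome 430 2.0 arrays. They were chosen by earlier results of these same arrays, namely signals that differed between single arrays and between pairs of arrays, so their levels are given as a description. Of the 18193 genes with a probe set that names them alone, 6 are osteoblast genes of this set, Sp7, Ibsp, Alpl, Phex, Mepe and Dmp1. The annotation used here pairs no probe set with Runx2 or Spp1, and these were not analysed here.

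RNA was taken from the dermis of dorsal skin of mouse embryos at E15.5, with dispase used to loosen the epidermis from it. The 2 arrays labelled mutant came from embryos of genotype KRT14-Cre Ctnnb1(Ex3)fl/+, and the 2 labelled control from littermates whose genotype the labels do not spell out. KRT14-Cre recombines in surface epithelium, where removal of exon 3 stabilises beta-catenin, the transducer of Wnt signalling. The Cre is thus directed to the epidermis, and whether recombined epithelial cells were left in the dermis that was measured was not tested. The series design names 2 embryos of each kind, so each array stands for 1 embryo.

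The arrays do not fall together by label. Across tested probe sets the log2 signals of mutant 2 and control 1 had a Pearson correlation of 0.981, and those of mutant 1 and control 2 one of 0.984, against 0.949 to 0.959 for the other pairs. These are correlations across probe sets, which are not independent. Of 97 probe sets given as higher in mutant by the authors' deposited table, 96 had mutant 2 and control 1 both above the other arrays, and all 56 given as lower had that pair below. None of the 10 osteoblast probe sets is in the authors' deposited table. Each array had a fluidics module of its own, and scanning ran in the order control 2, mutant 1, control 1, mutant 2, so the array pairs and the order of scanning cannot be told apart. The instrument records call the samples mouse epidermis, while genes of dermal fibroblasts summed to 36946 and 23995 on the mutant arrays, against 29364 and 32589 on the control arrays, and genes of epidermal keratinocytes to 3588 and 623, against 571 and 801. Whether arrays were exchanged between labels was not tested, and every difference by label below, sign included, holds for the labels as given.

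Across the osteoblast genes, signal was high on mutant 2 and control 1 and low on mutant 1 and control 2, so no gene separated the labelled groups. Sp7 was about equal on the high arrays, while Ibsp, Phex, Dmp1 and Alpl were higher on mutant 2 than on control 1. Mepe stayed dim on every array. Of the 10 probe sets, 9 had mutant 2 and control 1 both above mutant 1 and control 2, a pattern that 23.5% of all 45037 probe sets showed. The labelled groups overlapped for all 10, so that 0 of 10 kept mutant and control arrays apart, against 25.6% of all probe sets. For the 9 this follows from the order of the pairs, so it is not a further result.

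**Figure D1:**
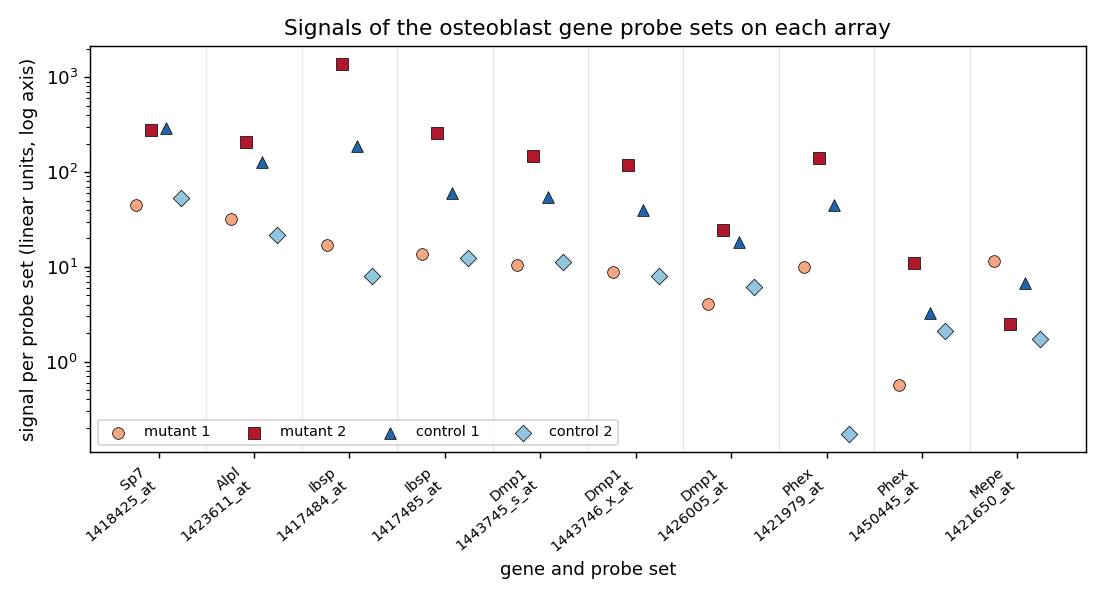
The plot gives the signal of each osteoblast gene probe set (linear units, log axis) on the arrays mutant 1, mutant 2, control 1 and control 2, with 1 point per array. For 9 of 10 probe sets the points of mutant 2 and control 1 lie above both others, and the probe set of Mepe is the exception.

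Sp7, the zinc finger factor without which mouse osteoblasts do not form, gave signals of 45.0 and 275 on mutant 1 and mutant 2, against 288 and 52.9 on control 1 and control 2. One array of each label was high and the other low, and the groups overlapped fully. Mutant 2 stood at 0.955 times control 1, and control 1 at 5.45 times the higher of the low arrays. The difference of mutant minus control was -0.12 ± 1.01 on the scale of log2(signal + 16) (SE, n = 2 per group, limma adjusted p = 0.9999).

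Alpl, the tissue-nonspecific alkaline phosphatase that cleaves pyrophosphate, an inhibitor of mineral growth, gave 31.9 and 208 on mutant 1 and mutant 2, against 128 and 21.9 on control 1 and control 2. The same arrays were high as for Sp7, with mutant 2 now 1.63 times control 1. Control 1 was 4.0 times the higher of mutant 1 and control 2. By label the log2 difference was 0.49 ± 0.96 (SE, n = 2 per group, limma adjusted p = 0.9999).

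Ibsp, bone sialoprotein, a matrix protein of mineralising bone that can start crystal growth, gave 17.0 and 1365 on mutant 1 and mutant 2, against 190 and 7.97 on control 1 and control 2, in the probe set 1417484_at. Mutant 2 was highest by a wide margin, control 1 was intermediate, and mutant 1 and control 2 were dim. Mutant 2 reached 7.18 times control 1. The second probe set, 1417485_at, gave 13.8 and 257 on the mutant arrays, against 60.0 and 12.3 on the control arrays. It ordered mutant 2 and control 1 above the others in the same way, with mutant 2 at 4.29 times control 1. The log2 differences by label were 1.60 ± 1.99 and 0.96 ± 1.13 (SE, n = 2 per group, limma adjusted p = 0.9999 for both).

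Dmp1, a phosphoprotein of osteocyte and dentin matrix, has 3 probe sets, of which 1443745_s_at gave 10.5 and 148 on mutant 1 and mutant 2, against 55.2 and 11.1 on control 1 and control 2. Probe set 1443746_x_at gave 8.75 and 117 on the mutant arrays, against 39.6 and 8.02 on the control arrays. Both thus placed mutant 2 at 2.69 and 2.96 times control 1, with mutant 1 and control 2 dim. The dim probe set 1426005_at, with 4.07 and 24.4 against 18.3 and 6.19, kept the order with a mutant 2 over control 1 ratio of 1.33. By label the log2 differences of the brighter probe sets were 0.59 ± 0.97 and 0.65 ± 0.89 (SE, n = 2 per group, limma adjusted p = 0.9999 for both).

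Phex gave 9.96 and 140 on mutant 1 and mutant 2, against 44.5 and 0.174 on control 1 and control 2, in the probe set 1421979_at. Mutant 2 was 3.15 times control 1, and mutant 1 and control 2 were dim. The second probe set, 1450445_at, was dim throughout, with 0.565 and 11.0 on the mutant arrays, against 3.23 and 2.10 on the control arrays. Neither passed the filter on low values, so both have log2 differences by label, 1.02 and 0.18, with no test in the fit.

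Mepe, a matrix phosphoglycoprotein of osteocytes and a relative of Dmp1 and Ibsp, gave 11.6 and 2.47 on mutant 1 and mutant 2, against 6.83 and 1.75 on control 1 and control 2. Its highest array was mutant 1, and its log2 difference by label was 0.16 with no test. For scale, 9 genes of other organs, such as the glial filament gene Gfap and the insulin gene Ins2, had signals from 0.149 to 17.2 on these arrays. The signals of Ibsp, Phex and Dmp1 on mutant 1 and control 2, and those of Mepe on all 4 arrays, fell within that range, while those of Sp7 and Alpl did not. Detection calls were not used here, and probe sets differ in brightness for the same amount of RNA, so levels of different genes are not ranked.

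In the fit across all probe sets, 0 of 22519 tested probe sets (0%) passed an adjusted p of 0.05 between mutant and control as labelled (limma), and 208 had an unadjusted p under 0.05. The uncorrected test named in the headers of the authors' table, run here on the same 22519 probe sets, gave 3 at its threshold and 0 after adjustment. It used the deposited MAS5 signals, whereas the authors' table gives folds after GCRMA and lists 153 probe sets. The 2 counts are thus not of like values. Of the 10 osteoblast probe sets, 6 were tested, standing for Sp7, Alpl, Ibsp and Dmp1, and 0 had an unadjusted p under 0.05. They passed the filter through the arrays on which they were high. In limma without a block, no difference in these genes was detected between the groups as labelled, which does not show that the genotypes were alike. With a block of array pairs picked from these same arrays, 108 of the 22519 tested probe sets were called. Among them was 1 of the 6, probe set 1417484_at of Ibsp, while the second Ibsp probe set was not called. For 1417484_at the log2 difference was 2.74 between mutant 2 and control 1, and 0.46 between mutant 1 and control 2. Each difference has 1 array on each side, and the signals behind the second, 17.0 and 7.97, lay in the range of the genes of other organs.

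Single arrays set the direction by label for every osteoblast gene. Without mutant 2 the log2 difference of Ibsp was -1.09, and without mutant 1 it was 4.30, with 3.15 without control 1 and 0.0512 without control 2. Sp7 had -1.25 without mutant 2 and -1.19 without control 2, but 1.01 without mutant 1 and 0.95 without control 1. The sign for Sp7 thus changed with the array left out. Alpl likewise had -0.62 without mutant 2 and -0.47 without control 2, against 1.61 without mutant 1 and 1.45 without control 1. Dmp1 ran from -0.73 without mutant 2 to 1.90 without mutant 1, with -0.11 without control 2 and 1.28 without control 1. Phex ran from -0.27 without mutant 2 to 2.32 without mutant 1, and was 1.98 without control 1 and 0.0727 without control 2. Mepe ran from -0.12 without mutant 1 to 0.45 without mutant 2, and was 0.35 without control 1 and -0.0167 without control 2.

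**Figure D2:**
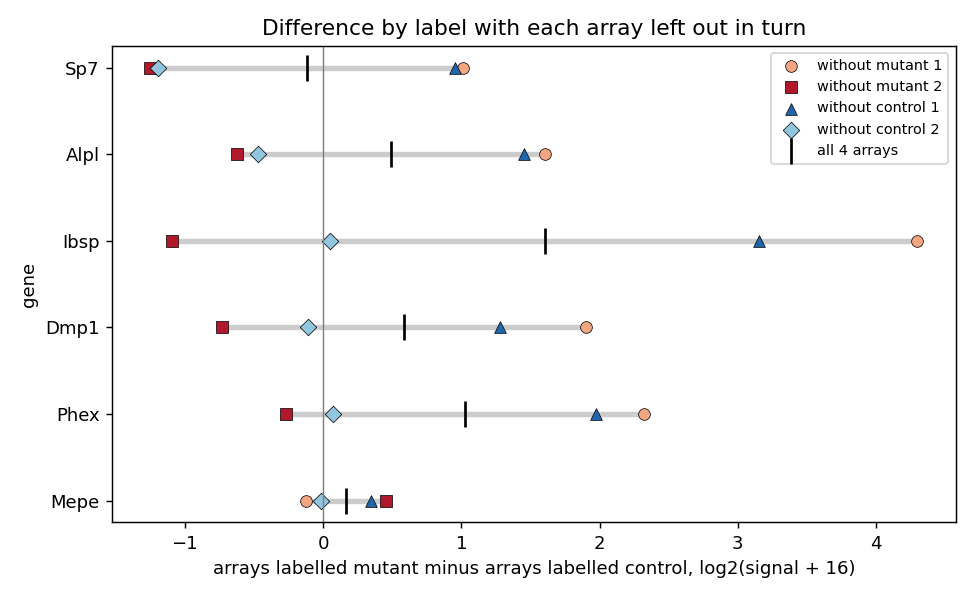
Each row gives, for 1 gene, the difference of the arrays labelled mutant minus those labelled control on the log2(signal + 16) scale, with all 4 arrays (vertical mark) and with each array left out (coloured points). All 6 genes have points on both sides of 0, and Ibsp has the widest span, -1.09 to 4.30.

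Taken by array pairs, the osteoblast genes other than Mepe all lay higher on mutant 2 and control 1. The difference of this pair minus the pair mutant 1 and control 2 was 4.24 for Ibsp, 2.25 for Phex, 2.20 for Sp7, 2.08 for Alpl and 2.01 for Dmp1, and -0.11 for Mepe (log2(signal + 16), representative probe set of each gene). The median over all tested probe sets was 0.00524. The pairing was picked from these arrays, so no test is given. Control 1 was at least 2 times the higher of mutant 1 and control 2 for 8 of the 10, against 5.69% of all probe sets. For Ibsp, Phex and Dmp1 the low arrays lay in the range of the genes of other organs, so these ratios are not measured folds. Which cells gave these signals was not tested. RNA of whole tissue was measured, so a larger share of such cells and more RNA per cell cannot be told apart.

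Between mutant 2 and control 1 the difference varied from gene to gene. On the log2(signal + 16) scale the difference of mutant 2 minus control 1 was 2.74 for Ibsp, 1.37 for Phex, 1.21 for Dmp1 and 0.64 for Alpl, with -0.06 for Sp7 and -0.31 for Mepe. Over all tested probe sets this difference had a median of -0.0114 and an SD of 0.309, and it was 1 or more for 0.959% of them. Mutant 2 was highest and at least 4 times the next array for 2 of the 10 probe sets, both of Ibsp, a pattern that 0.728% of all probe sets showed. With 1 array on each side, this comparison has no replicate check.

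For most cartilage genes the signal was carried mainly by mutant 2. Of 17 chondrocyte genes, 14 were at least 4 times higher on mutant 2 than on any other array, against 1 of the 6 osteoblast genes by representative probe set. Col2a1, the main collagen of cartilage, gave 3.14 and 2857 on mutant 1 and mutant 2, against 13.2 and 17.2 on control 1 and control 2. Col9a1, another cartilage collagen, gave 124 and 2895 on the mutant arrays, against 65.2 and 160 on the control arrays. For both, control 1 was below control 2, whereas for Ibsp control 1 was far above it. For Col2a1 the control signals lay in the range of the genes of other organs, so their order is not a measured one. Col11a1 gave 122 and 1672 against 380 and 116, and the chondrocyte membrane protein Cnmd gave 48.0 and 1300.5 against 38.4 and 45.4. The rest of the 14 were Col9a2, Col9a3, Col11a2, Acan, Matn1, Matn3, Comp, Hapln1, Snorc and Ucma, with signals on mutant 2 from 68.7 for Ucma to 1284 for Matn1. Of the 14, Col9a2, Col11a1 and Hapln1 were also raised on control 1. There they stood at 4.12, 3.12 and 4.81 times the higher of mutant 1 and control 2.

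The median difference of mutant 2 minus control 1 was 3.40 over the 17 chondrocyte genes and 0.92 over the 6 osteoblast genes (log2(signal + 16)), which is a description of these arrays with no test. Signal of the 17 genes summed to 524 on mutant 1 and 15022 on mutant 2, against 856 on control 1 and 562 on control 2. Signal of the 6 osteoblast genes summed to 126 and 2139, against 712 and 95.8. Ibsp, at 1365, made up most of that sum on mutant 2, and Sp7, at 288, was its largest part on control 1. The chondrocyte sum thus stood far above the rest on mutant 2 and the osteoblast sum on mutant 2 and control 1. Control 1 was at least 2 times the low arrays for 4 of 17 chondrocyte genes and for 5 of 6 osteoblast genes. Hapln1, the link protein of cartilage matrix, was among these 4, with 16.9 and 704 against 81.6 and 11.1. So was Sox9, with 29.4 and 126 against 74.9 and 27.8. Like Alpl, it was higher on mutant 2 than on control 1, at 1.68 times, and raised on both. Sox5 gave 20.6 and 24.7 against 15.4 and 17.5, and Sox6 gave 47.6 and 75.4 against 31.4 and 54.3. These 3 Sox genes of the list were named after their values were seen, and none was carried 4-fold by mutant 2.

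Genes of hypertrophic cartilage, the stage before cartilage is replaced by bone, were also carried by mutant 2. Col10a1, the collagen that marks this stage, gave 0.867 and 861 on mutant 1 and mutant 2, against 0.745 and 0.480 on control 1 and control 2. Mmp13, a collagenase of hypertrophic chondrocytes and osteoblasts, gave 0.217 and 383 on the mutant arrays, against 1.56 and 1.37 on the control arrays. Neither gene was raised on control 1, where Sp7, Alpl, Ibsp, Dmp1 and Phex all were. The other 2 genes of the list differed, since Ihh gave 11.0 and 40.9 against 11.8 and 25.4, and Pth1r, the receptor of parathyroid hormone, gave 1215 and 588 against 424 and 1354. The part of cartilage in the osteoblast signals of mutant 2 was not tested.

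**Figure D3:**
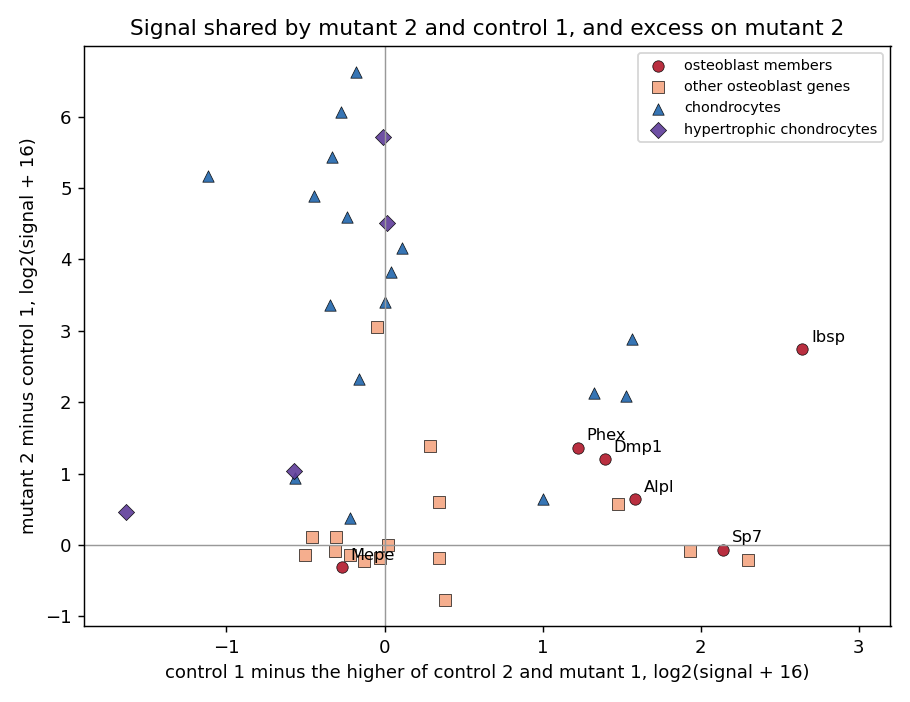
Each point is a gene, with control 1 minus the higher of control 2 and mutant 1 on the horizontal axis and mutant 2 minus control 1 on the vertical axis (both log2(signal + 16)). Osteoblast genes other than Mepe lie to the right of 0, with Sp7 near 0 and Ibsp at 2.74 on the vertical axis, while most chondrocyte genes lie near 0 on the horizontal axis and high on the vertical axis.

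Other genes of osteoblasts did not move as a group. Of 20 listed genes, 16 had a probe set, and 0 of the 13 tested were called by label in limma. Mutant 2 and control 1 were above the others for 7 of 16, against 23.5% of all probe sets, and below them for 5. Sparc, Col1a2, Col1a1 and Cdh11 encode matrix proteins and a cadherin that fibroblasts also make, and their signals ran from 3293 for Cdh11 on mutant 2 to 7485 for Sparc on mutant 1. Col1a1, the main collagen chain of both bone and skin, gave 5641 and 4453 on mutant 1 and mutant 2, against 4101 and 5169 on control 1 and control 2. Panx3, a channel protein of osteoblasts and hypertrophic chondrocytes, was carried by mutant 2 with 5.85 and 296, against 21.5 and 22.7. The homeobox factor Dlx5 and the membrane protein of osteoblasts Ifitm5 are named after their values were seen. Dlx5 gave 27.4 and 140 against 149 and 2.19, like Sp7 about equal on the high arrays, and Ifitm5 gave 27.6 and 123 against 37.2 and 11.9. Dlx6 and Sost, also named after their values were seen, were dim. Dlx6 gave 10.7 and 4.40 against 18.7 and 1.19, and Sost 14.4 and 18.2 against 22.6 and 10.3.

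Genes that govern mineral and phosphate were mixed. Of 7 measured genes, 4 had mutant 2 and control 1 above the others, against 23.5% of all probe sets, and 2 had that pair below. In limma 0 of 6 tested genes were called by label. Mgp, an inhibitor of calcification in cartilage and vessel walls, gave 50.4 and 1204 on mutant 1 and mutant 2, against 546 and 43.2 on control 1 and control 2. Smpd3, a sphingomyelinase needed for bone mineralisation in mice and named after its values were seen, gave 9.12 and 222 against 125 and 11.8. Both had the shape of Ibsp, Phex, Dmp1 and Alpl, high on mutant 2, lower on control 1 and low on the others. Anxa5, a membrane-binding annexin, and the phosphate carriers Slc20a1 and Slc20a2 differed less between arrays, with 3449 and 2979 against 3125 and 3138 for Anxa5, 419 and 390 against 392 and 490 for Slc20a1, and 229 and 376 against 366 and 255 for Slc20a2.

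Some markers of other cells moved with the same pair and others against it. Of all 45037 probe sets, 23.5% had mutant 2 and control 1 above the others, and the share with that pair below is not given here. All 4 tendon genes had mutant 2 and control 1 above the others, with sums of 373 and 2301 on mutant 1 and mutant 2, against 1910 and 391 on control 1 and control 2. Tnmd, a tendon membrane protein, gave 187 and 1527 against 1573 and 185, and the matrix proteoglycan Fmod gave 161 and 686 against 287 and 174. The tendon transcription factors were dimmer, with 16.1 and 58.6 against 33.3 and 22.7 for Mkx and 9.05 and 30.2 against 16.6 and 8.95 for Scx. Of 9 macrophage genes 8 had that order, with sums of 4825 and 6428 against 8392 and 4101. Of 9 osteoclast genes 4 had it, with sums of 1308 and 922 against 810 and 1236. From this list, Calcr, Oscar, Dcstamp and Ocstamp, named after their values were seen, were at 14.8 or below on every array. Dcstamp and Ocstamp were among the 4 with that order. Itgb3 was brighter, with 75.6 and 89.0 against 102 and 51.8. Acp5 gave 37.5 and 60.7 against 21.0 and 27.4, with both mutant arrays above both control arrays. Ctsk, a protease of osteoclasts that dissolves bone collagen, made up most of the osteoclast sum on every array. It had that pair below, with 1160 and 524 against 577 and 1119. Mmp9, a protease of osteoclasts and other cells, gave 6.86 and 207 against 77.2 and 6.78. Of 8 skeletal muscle genes 6 had that pair below, with sums of 20321 and 10599 against 4513 and 11885, and 5 of 8 dermal fibroblast genes did. Of 13 genes of dermal condensate and papilla, 6 had that pair below and 3 had it above. The hair keratin-associated gene Krtap8-1 gave 3.21 and 1369 against 1237 and 8.01. The part of these cells in the osteoblast signals was not tested.

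**Figure D4:**
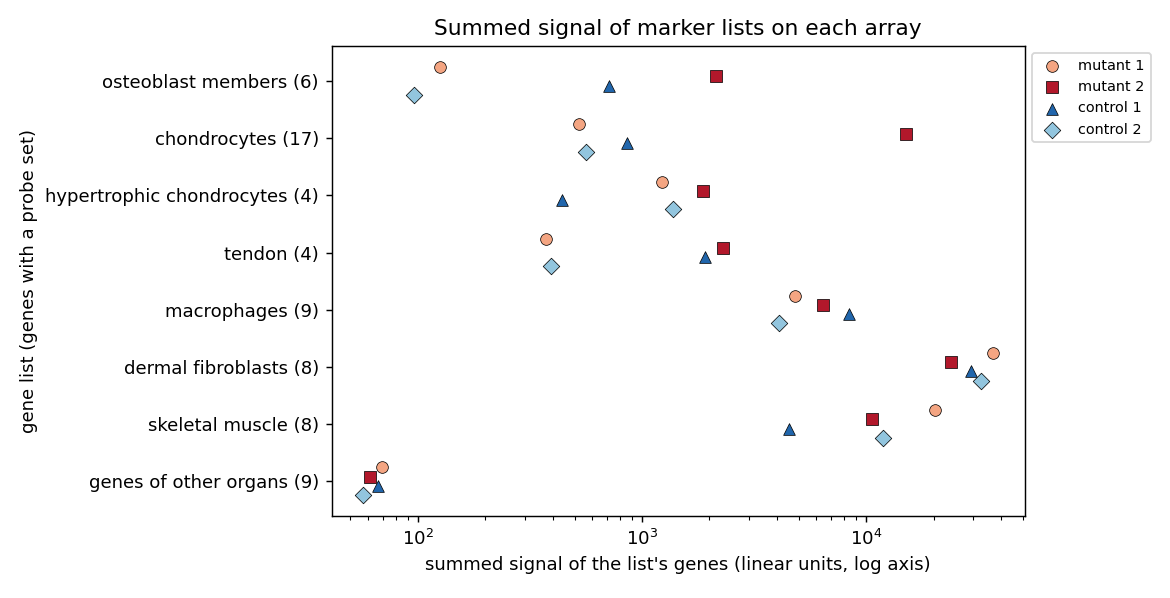
The plot gives the summed signal of each marker list (log axis) on mutant 1, mutant 2, control 1 and control 2, with 1 point per array and the number of genes in brackets. The osteoblast list has mutant 2 at 2139 and control 1 at 712 above the others, while the chondrocyte list has only mutant 2 far from the rest.

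The genes nearest in profile to Sp7, Alpl, Dmp1 and Ibsp, the 4 osteoblast genes that passed the filter on low values, were found by the distance between log2(signal + 16) values over the 4 arrays, each centred on its mean. Nearest to Sp7 were Kazald1 (distance 0.101), Prss35 (0.173) and the homeobox factor Msx2 (0.184). Msx2 gave 15.3 and 117 on mutant 1 and mutant 2, against 138 and 14.5 on control 1 and control 2. Nearest to Alpl were Ndrg2 (0.235), the small leucine-rich proteoglycan Omd (0.250) and the netrin receptor Unc5c (0.262). Nearest to Dmp1 were the FGF receptor Fgfr3 (0.215), the sphingomyelin synthase Sgms2 (0.247) and Alpl (0.482). Ibsp had no close neighbour, since its nearest were Prr9 (0.953), Hapln1 (1.11) and Mgp (1.28). With 4 arrays such likeness is a description only.

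Dmp1, Ibsp, Mepe and Spp1 are neighbours on mouse chromosome 5 in this order in the assembly GRCm38.p6, with Dspp, a dentin matrix gene, before Dmp1. Of these adjacent genes, Ibsp was highest on mutant 2, while Mepe beside it was dim on every array. Dspp, named after its values were seen, lay at 0.438 and 1.16 on mutant 1 and mutant 2, against 1.56 and 1.69 on control 1 and control 2.

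The start regions of Ibsp, Dmp1 and Mepe are shown to set these neighbours side by side, as RefSeq windows of 300 bases (GRCm38.p6, from 250 before to 50 after the start, plus strand, 5′ to 3′). Such windows were found for 5 of the 6 measured genes, not for Sp7. Capitals mark exact matches on either strand to the Runx motif TGTGGT, the homeodomain motif TAATTA and the TATA motif TATAAA, none of which overlap here. The windows are chr5:104299037-104299336 for Ibsp, chr5:104197325-104197624 and chr5:104202367-104202666 for Dmp1, which has 2 annotated starts, and chr5:104325079-104325378 for Mepe.
Ibsp: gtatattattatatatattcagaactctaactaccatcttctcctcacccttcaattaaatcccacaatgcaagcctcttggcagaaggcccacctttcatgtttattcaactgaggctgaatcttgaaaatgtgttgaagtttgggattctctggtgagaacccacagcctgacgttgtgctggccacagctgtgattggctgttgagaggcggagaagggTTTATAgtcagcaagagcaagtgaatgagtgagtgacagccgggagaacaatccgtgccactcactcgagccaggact
Dmp1, first start: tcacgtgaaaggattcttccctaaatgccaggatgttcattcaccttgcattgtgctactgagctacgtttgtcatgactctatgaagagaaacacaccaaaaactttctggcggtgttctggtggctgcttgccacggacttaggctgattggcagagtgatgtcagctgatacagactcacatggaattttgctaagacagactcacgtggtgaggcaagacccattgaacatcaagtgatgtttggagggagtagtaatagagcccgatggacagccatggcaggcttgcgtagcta
Dmp1, second start: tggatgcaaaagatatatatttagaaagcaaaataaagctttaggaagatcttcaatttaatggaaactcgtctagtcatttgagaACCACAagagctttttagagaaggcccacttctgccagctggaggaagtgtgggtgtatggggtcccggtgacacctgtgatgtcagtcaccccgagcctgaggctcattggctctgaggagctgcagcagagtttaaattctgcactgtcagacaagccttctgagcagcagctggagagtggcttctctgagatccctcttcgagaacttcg
Mepe: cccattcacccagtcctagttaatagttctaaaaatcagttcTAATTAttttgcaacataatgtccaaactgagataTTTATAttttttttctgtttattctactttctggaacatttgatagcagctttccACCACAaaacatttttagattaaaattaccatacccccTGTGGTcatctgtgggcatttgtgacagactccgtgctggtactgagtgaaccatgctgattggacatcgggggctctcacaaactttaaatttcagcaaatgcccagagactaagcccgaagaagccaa

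The Ibsp window held the TATA motif in reverse orientation, an arrangement described before for this gene in the rat, and no Runx or homeodomain match. The Dmp1 windows held 1 Runx match, at the second start. The Mepe window held 2 Runx matches, 1 homeodomain match and 1 TATA match, although its signal was dim. Of 32851 such windows, 16.8% held the Runx motif, 5.29% the homeodomain motif and 13.6% the TATA motif. A match is a description of the letters and not of a bound site.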

How the data were processed

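RNA from the dermis of 2 mutant and 2 control embryos was hybridised to 1 array each. The value table deposited by the authors holds linear signal intensity, 1 value for each probe set and array. It was made with GCOS and MAS5, per the submitters' processing notes, whose versions are not stated. With 2% of probe sets trimmed from both ends, each array averaged 149, so no further scaling was applied. The authors' second table gives a fold, the ratio of mutant to control after GCRMA, per the file headers, and 4 of its columns, per embryo, were not used. Instrument records of other settings were deposited by the authors, and only the fluidics module and the order and day of scanning were read.

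Mutant was compared with control, as labelled, on log2(signal + 16) with the two-sided test of limma 3.58.1, whose eBayes step had an intensity trend, in R 4.3.3. Adjustment was by Benjamini-Hochberg. The filter on low values kept 22519 of 45037 probe sets, those whose log2 mean was no lower than its median, 5.515, and 64 array controls were left out. The test was tried on simulated data. The brightest probe set on average stands for a gene, among the 34945 that name 1 gene. Of the rest, 932 name several genes and 9160 none. Tables and figures used matplotlib 3.10.9, pandas 2.3.3 and numpy 2.4.6 in Python 3.11.15.

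The members and lists were chosen with earlier results of these data known. Named were all member probe sets, from other lists up to 4 genes of highest mean signal, bone and cartilage genes with 1 array at least 4 times the next, and the 3 nearest profiles. Other genes are marked as named after their values were seen. Array precision is limited by the number of arrays.

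Same-numbered arrays did not deviate together, with a correlation of -0.616 over tested probe sets between mutant 1 and control 1. Alternatives were other pseudocounts, no filter, quantile or median scaling, each array left out, the replicate number as a block, and no trend. The crossed block, the methods' t-test and the pair counts without an array were added after the data were seen.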

Additional observations from a re-analysis of the deposited data

How the results depend on the processing

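With all 4 arrays the direction by label of Sp7, Ibsp, Alpl, Phex, Mepe and Dmp1 was the same with pseudocounts of 1 and 64, no filter on low values, quantile or median scaling, the replicate block, no trend, or another probe set of the gene. Leaving out 1 array turned it for each. The ranges were -1.25 to 1.01 for Sp7, -1.09 to 4.30 for Ibsp, -0.62 to 1.61 for Alpl, -0.27 to 2.32 for Phex, -0.12 to 0.45 for Mepe and -0.73 to 1.90 for Dmp1 (log2). Phex passed the filter on low values with a pseudocount of 64 and without control 2 or mutant 1, and Dmp1 did not without mutant 2. The count of probe sets called by label in limma was 0 in these alternatives with all 4 arrays, including the replicate block (96 with an unadjusted p under 0.05), and ran from 0 to 1 with an array left out, the lone array of a label being taken to vary like the rest. The methods' t-test, run on the MAS5 signals and not on GCRMA values, gave 3 at its own threshold. A block of the crossed pairing, picked from these data, gave 108 of 22519 tested probe sets, among them 1 of the 10 osteoblast probe sets, 1417484_at of Ibsp. The cause of these changes was not tested. The count of osteoblast probe sets with mutant 2 and control 1 above the others was 9, and leaving out an array can only keep or raise it, so that says nothing of stability. No fluidics module held more than 1 array and all 4 arrays shared 1 day, so a block of the instrument records was not run. Dim signals limit Mepe and the second probe set of Phex, which have no test.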
